A study of Mus musculus with 26 samples.

Results

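Mature sperm pack their DNA with protamines in place of histones. In spermatids, the haploid cells that follow meiosis, most histones are removed, the transition proteins TNP1 and TNP2 take their place, and the arginine-rich protamines PRM1 and PRM2 then replace the transition proteins. The genes are transcribed in spermatids, their mRNAs are stored, and translation starts days later as the nucleus condenses.

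The 5 genes described here are *Prm1*, *Prm2*, *Prm3*, *Tnp1* and *Tnp2*, chosen by name from the 51124 genes of the deposited table. *Prm1* and *Prm2* encode the protamines, and PRM2 is made as a precursor that is cut to its mature form. *Prm3* lies between *Prm2* and *Tnp2* in the same gene cluster, but encodes an acidic protein found in the cytoplasm of spermatids. *Tnp1* and *Tnp2* encode the transition proteins. *Prm1* (ENSMUSG00000022501.7), *Prm2* (ENSMUSG00000038015.7), *Prm3* (ENSMUSG00000050058.7) and *Tnp2* (ENSMUSG00000043050.9) are on chromosome 16, and *Tnp1* (ENSMUSG00000026182.7) is on chromosome 1.

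Ribosome-depleted total RNA from whole testes of adult mice was sequenced in 6 libraries, each from a different mouse. N1 and N2 were wild type (WT). N3 and N4 were *10xPerf*, a knock-in line carrying 10 target sites for the pachytene piRNA piR-A in the 3′ untranslated region of *Ythdc2*, each site fully complementary to piR-A. N5 and N6 were *10xBulge*, with 10 such sites that do not pair with piRNA nucleotides 10 and 11. Both lines were made by Cas9 injection into embryos of the B6D2F1/J hybrid, and the ages beyond adult were not given in the sources used here. Whole testes hold all germ cell stages and somatic cells together, so that fewer spermatids and less RNA per spermatid cannot be told apart. The values are normalized read counts per gene, and log2 fold changes were fitted in limma on log2(value + 1) over 23782 genes, with an adjusted p under 0.1 as the threshold.

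Depth lay between about 41.1 M and 61.6 M reads, at which 3 reads are worth 2.73 to 3.63 normalized counts. *Ythdc2*, the gene that carries the sites, was between 827 and 2458 normalized counts in the 6 libraries. N1 stood apart in its ribosomal RNA, with 2406107 normalized counts of *Rn18s* against 24801 to 201129 in the others. Some fold changes, remaining levels and list medians against WT are therefore also given without N1. Values given without such a figure may move too.

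The promoters show what the 5 genes share and where they differ before any value is read. They are drawn from the RefSeq windows of 250 bases before to 50 bases after each gene's start (assembly GRCm38.p6), and all 5 lie on the minus strand. The stretches around motif matches are printed 5′ to 3′ with the match in capitals. The cyclic AMP response element is the site bound by CREM, a spermatid transcription factor, and was searched as TGACNTCA on both strands.
Prm1, chr16:10796870-10796897: tggtcctcttTGACTTCAtaattcctag
Prm3, chr16:10790957-10790984: ggagcctttgTGAGGTCAgtgccacacc
Tnp1, chr1:73015976-73016003: caaaggttagTGATGTCAcaagagagct

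The match began 64 bases before the start of *Prm1*, 60 before that of *Prm3* and 94 before that of *Tnp1*. Such a match was found in 8.83% of all 32851 promoter windows, and these letters are not in the windows of *Prm2* and *Tnp2*. TATATA, a variant of the TATA box that reads the same on both strands, was found in *Prm2* and *Tnp2*, and in 5.67% of all windows.
Prm2, chr16:10792119-10792144: ggtttaccttTATATAtgagccctct
Tnp2, chr16:10788675-10788700: tcggcccagcTATATAactaggggct

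These matches began 29 bases before the start of *Prm2* and 35 before that of *Tnp2*. *Prm2* also held TATAAA, read on the opposite strand and overlapping the printed match, a motif present in 13.6% of windows. Counted from the start of *Prm1*, the starts of *Prm2*, *Prm3* and *Tnp2* lie 4718, 5909 and 8168 bases away. The matches are a description of the letters and no measurement of binding.

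*Prm1* was the most abundant member in every library and ranked 3 in N1 and N2, 2 in N3 and 1 in N4 among all protein-coding genes. The WT libraries N1 and N2 had 283135 and 200780 normalized counts, the *10xPerf* libraries N3 and N4 had 212207 and 253312, and the *10xBulge* libraries N5 and N6 had 187 and 74.2. The *10xBulge* pair lay far below the other libraries, which overlapped with each other. Its rank among protein-coding genes was 11985 in N5 and 13508 in N6. *Prm2* had 174064 and 106836 in WT, 135182 and 155406 in *10xPerf*, and 114 and 44.3 in *10xBulge*. WT and *10xPerf* again overlapped, and N5 was again above N6.

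*Prm3*, the least abundant member, had 3345 and 2400 normalized counts in WT, 2730 and 2571 in *10xPerf*, and 9.14 and 0.975 in *10xBulge*. The value in N6 is worth about 1 read and lies below the worth of 3 reads in that library, 2.90. Its level in *10xBulge* is therefore at the edge of detection, unlike that of the other members.

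*Tnp2*, the more abundant of the transition protein genes, had 113785 and 62637 normalized counts in WT, 100963 and 80756 in *10xPerf*, and 99.5 and 57 in *10xBulge*. *Tnp1* had 16590 and 24653 in WT, 29823 and 33857 in *10xPerf*, and 26.4 and 15.5 in *10xBulge*. *Tnp1* was the member for which both *10xPerf* libraries lay above both WT libraries. It was also the member for which N2 was above N1.

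**Figure D1:**
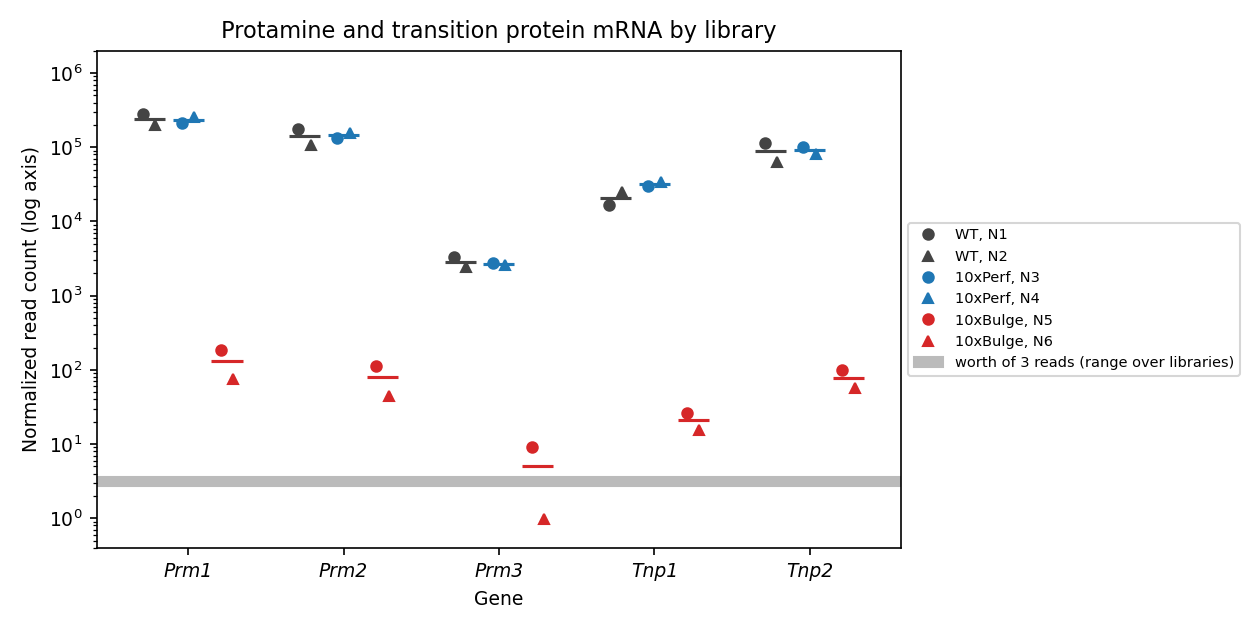
Normalized read counts (log axis) of the 5 genes in each library, with a bar at the mean of each genotype and a grey band at the worth of 3 reads. The 2 *10xBulge* libraries sit far below the other 4 for each gene, and the N6 value of *Prm3* is the only one below the band.

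Together the 5 genes made up 1.30% and 0.910% of the protein-coding normalized counts in WT, 1.14% and 1.15% in *10xPerf*, and 0.00105% and 0.000596% in *10xBulge*. Relative to WT, every member fell in *10xBulge* (5 of 5 past the threshold), where 23% of all genes tested were past it in this direction. The median log2 fold change was -10.11 over the members and -0.026 over all genes tested. The libraries of both genotypes did not overlap for any member, which held for 33.2% of all genes in this direction.

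The fall was 1852-fold in the means for *Prm1*, with a log2 fold change of -10.97 (standard error, SE, 0.51, limma adjusted p = 4.39e-06, 95% confidence interval -12.13 to -9.81). *Prm2* fell by 10.88 on the log2 scale (SE 0.52, limma adjusted p = 4.39e-06), a ratio of means of 1776. Both protamine genes were among the 4 genes with the lowest log2 fold changes of the 23782 tested. *Tnp2* fell by 10.11 (SE 0.47, limma adjusted p = 4.39e-06) and *Tnp1* fell by 9.89 (SE 0.43, limma adjusted p = 3.77e-06), ratios of means of 1128 and 985. They had ranks 22 and 24 from the lowest. All these ranks depend on the 1 added before taking logs, which shrinks the fitted fall of genes near 0 in *10xBulge*.

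*Prm3* fell by 9.31 (SE 0.68, 95% confidence interval -10.85 to -7.76, limma adjusted p = 1.44e-05), at rank 55. Its value depends on the pseudocount, since so few reads remain, and was -7.62 with a pseudocount of 10. Without N1, all 5 members were still past the threshold, with log2 fold changes between -10.72 for *Prm1* and -9.07 for *Prm3*. The lone WT library is then assumed to vary like the other genotypes. The confidence intervals of the 5 members overlap, and differences between members in the size of the fall are given below as ratios within a library.

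Against *10xPerf*, all 5 members were also lower in *10xBulge*, where 24.1% of all genes tested were lower. The log2 fold changes were -10.93 for *Prm1*, -10.97 for *Prm2*, -9.21 for *Prm3*, -10.55 for *Tnp1* and -10.21 for *Tnp2*, with limma adjusted p-values of 2.98e-06 to 1.36e-05. This comparison shares its *10xBulge* libraries with the one against WT. The median over the members was -10.55, beside -0.067 over all genes tested.

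In *10xPerf*, none of the 5 members passed the threshold against WT in limma, 0 had an unadjusted p under 0.05, and 0.959% of all genes tested were past the threshold in either direction. The log2 fold change was -0.040 for *Prm1* (95% confidence interval -1.20 to 1.12, limma adjusted p = 0.987) and 0.088 for *Prm2* (-1.09 to 1.26, limma adjusted p = 0.971). It was -0.097 for *Prm3* (-1.64 to 1.45, limma adjusted p = 0.975) and 0.097 for *Tnp2* (-0.96 to 1.16, limma adjusted p = 0.963). For these genes a change smaller than the interval's bounds could not have been seen with 2 libraries per genotype. *Tnp1* had the largest value, 0.65 (SE 0.43, 95% confidence interval -0.31 to 1.61, limma adjusted p = 0.853), with 31840 ± 2853 normalized counts (SD, n = 2) beside 20621 ± 5701 (SD, n = 2) in WT. Both *10xPerf* libraries were above both of WT in 20.2% of all genes.

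**Figure D2:**
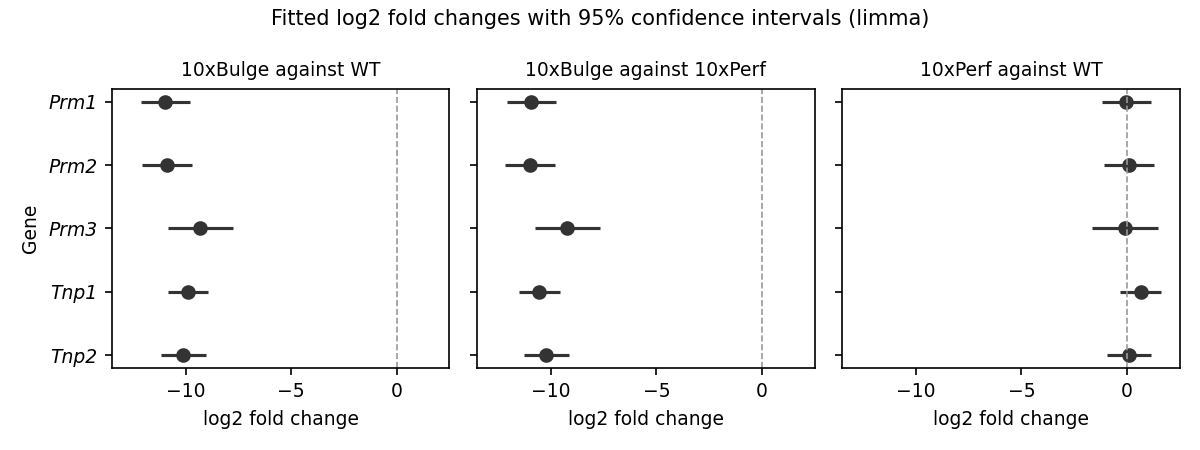
Fitted log2 fold changes (points) and 95% confidence intervals (lines) from limma for the 5 genes in the 3 comparisons, with a dashed line at no change. All 5 intervals end at or below -7.67 in both *10xBulge* comparisons and all 5 include 0 in *10xPerf* against WT.

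What remained in *10xBulge* was small for every member but above the worth of 3 reads in both libraries for 4 of them. The source of these remaining reads was not tested. As a percent of the WT mean, *Prm1* was at 0.0540% ± 0.0330 (SD, n = 2) and *Prm2* at 0.0563% ± 0.0351. *Tnp2* was at 0.0887% ± 0.0340, *Tnp1* at 0.102% ± 0.0375 and *Prm3* at 0.176% ± 0.201. The ranges of N5 and N6 overlapped between all members. Without N1 the percents were 0.0651% for *Prm1*, 0.0740% for *Prm2*, 0.211% for *Prm3*, 0.0849% for *Tnp1* and 0.125% for *Tnp2*, so that *Tnp1* was then below *Tnp2*.

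In approximate reads, *Prm1* had 205 in N5 and 76.8 in N6, *Prm2* 125 and 45.8, and *Tnp2* 109 and 58.9. *Tnp1* had 29 reads in N5 (95% Poisson interval 19.4 to 41.6) and 16 in N6 (9.15 to 26.0). *Prm3* had 10.0 reads in N5 (4.83 to 18.4) and 1.01 in N6 (0.0262 to 5.59). In percent of the WT mean, *Prm3* was at 0.318% in N5 (0.153 to 0.585) and 0.0340% in N6 (0.000883 to 0.188), intervals that overlap. All such intervals cover counting error only. Residues this low were rare among the 3806 genes with a WT mean at or above that of *Prm3*, the members included. Of these genes, 142 (3.73%) were under 1% of WT in *10xBulge* and 17 under 0.1%, and the median of all 3806 was 72.2%. Without N1 these were 152 of 4499 genes (3.38%) under 1% and 16 under 0.1%, with a median of 77.6%.

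The agreement of replicates was set beside that of all genes tested. In WT, N1 and N2 differed on the log2 scale by 0.50 for *Prm1*, 0.70 for *Prm2*, 0.48 for *Prm3*, 0.57 for *Tnp1* and 0.86 for *Tnp2*, where the median gap of all genes tested was 0.51 and the 90th percentile 1.28. *Tnp1* was higher in N2 and the other members in N1. *Tnp1* also has the lowest GC content of the 5 transcripts, 49.2% against 54.4% to 58.8%, and the part of base composition in this gap was not tested. In *10xPerf* the gaps were 0.26, 0.20, 0.086, 0.18 and 0.32 in the same order, all below the median gap of 0.42.

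In *10xBulge* each member was higher in N5 than in N6. The gap was 1.32 on the log2 scale for *Prm1*, 1.34 for *Prm2*, 2.36 for *Prm3*, 0.73 for *Tnp1* and 0.79 for *Tnp2*. All are above the median gap of 0.62 and that of *Prm3* is above the 90th percentile of 1.76. Over all genes tested, 56.6% were higher in N5. Other genes of elongating spermatids (11 of 12) and of round spermatids (13 of 15), from marker lists given below, were also higher in N5, with median gaps of 0.75 and 0.80. The same held for markers of somatic cells: 8 of 8 for Leydig cells (median gap 1.26), 9 of 10 for Sertoli cells (0.61) and 6 of 6 for macrophages (0.37). Markers of earlier germ cells leaned less to N5, with 11 of 18 for spermatocytes (0.25) and 8 of 12 for spermatogonia (0.25). Genes linked to transcription of the family were the only list with a negative median gap (-0.13, 6 of 14 higher in N5).

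Levels of different genes were compared per kilobase of transcript, since the mRNAs are between 410 bases (*Prm3*) and 621 bases (*Prm2*) long. In WT the order was *Prm1* at 515900 ± 124166 normalized counts per kilobase (SD, n = 2), *Prm2* at 226167 ± 76550, *Tnp2* at 159225 ± 65283, *Tnp1* at 47188 ± 13047 and *Prm3* at 7005 ± 1630. The means of *Prm2* and *Tnp2*, neighbours in this order, differed by less than the spread between libraries, but *Prm2* was above *Tnp2* within each of them (280296 against 205387 in N1, 172038 against 113063 in N2). In *10xBulge* the means were 279 ± 170 for *Prm1*, 127 ± 79.3 for *Prm2*, 141 ± 54.2 for *Tnp2*, 47.9 ± 17.7 for *Tnp1* and 12.3 ± 14.1 for *Prm3*. The order of WT was found in 5 libraries. In N6 *Tnp2*, at 103 per kilobase, was above *Prm2*, at 71.3.

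**Figure D3:**
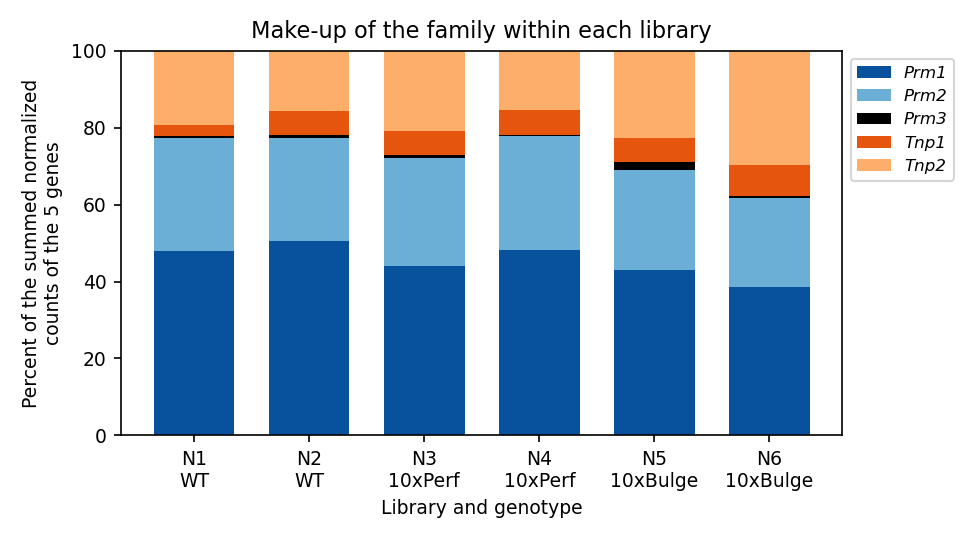
Share of each gene in the summed normalized counts of the 5 genes (percent, stacked to 100) in each library. *Prm1* takes 44.1% to 50.5% in WT and *10xPerf* and 38.7% to 42.9% in *10xBulge*, where *Tnp2* takes 22.8% to 29.7%.

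Ratios within a library do not depend on how libraries were scaled to each other. They were compared by a two-sided exact permutation test, which cannot give a p below 0.333 with 2 libraries against 2, so no ratio could pass 0.05. *Prm2* and *Prm1* kept close together: *Prm2* was at 61.5% and 53.2% of *Prm1* in WT, 63.7% and 61.3% in *10xPerf*, and 60.9% and 59.6% in *10xBulge*. The difference of log2 ratios between *10xBulge* and WT was 0.084 (exact permutation p = 1). The *10xBulge* values lie between those of WT.

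Relative to the transition protein genes, *Prm1* was lower in *10xBulge*. The ratio of *Prm1* to *Tnp1* was 17.1 and 8.14 in WT, 7.12 and 7.48 in *10xPerf*, and 7.08 and 4.80 in *10xBulge*. Both knock-in lines lay below WT without overlap, with differences of -1.07 for *10xBulge* and -0.69 for *10xPerf* on the log2 scale (exact permutation p = 0.333 for each, the smallest possible). N1 sets much of this: without it the differences were -0.54 and -0.16.

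The ratio of *Prm1* to *Tnp2*, which was added after the values were seen, was 2.49 and 3.21 in WT, 2.10 and 3.14 in *10xPerf*, and 1.88 and 1.30 in *10xBulge*. The *10xBulge* libraries were the lowest, with a difference from WT of -0.86 on the log2 scale (exact permutation p = 0.333, the smallest possible), which was -1.04 without N1. In *10xPerf* the difference was -0.14 (exact permutation p = 0.667).

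*Tnp2* was 6.86 and 2.54 times *Tnp1* in WT, 3.39 and 2.39 times in *10xPerf*, and 3.77 and 3.68 times in *10xBulge*. N1 was the highest, N2 lay within the *10xPerf* range, and the *10xBulge* pair lay between N1 and the rest. The difference between *10xBulge* and WT was -0.22 on the log2 scale (exact permutation p = 1) and became 0.50 without N1. *Prm3* was at 1.18% and 1.20% of *Prm1* in WT, 1.29% and 1.02% in *10xPerf*, and 4.89% and 1.31% in *10xBulge*. The difference of 1.66 between *10xBulge* and WT (exact permutation p = 0.333, the smallest possible) rests on the few reads of *Prm3* given above. It was 1.17 with a pseudocount of 0.1 and 3.24 with a pseudocount of 10. Without N5 it was 1.14, which rests largely on the 1 added to the 0.975 normalized counts of *Prm3* in N6. The ratio of counts in N6, 1.31%, was near the 1.18% and 1.20% of WT.

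**Figure D4:**
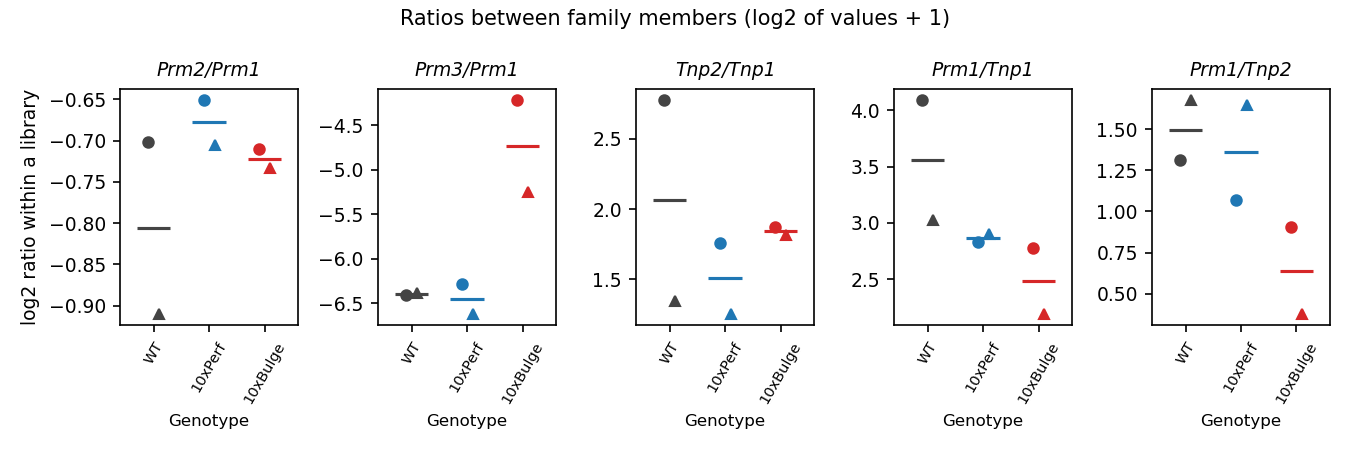
Log2 ratios between members within each library, by genotype, with circles for the first and triangles for the second library of a genotype and bars at the means. Each panel has its own axis range, and the *10xBulge* libraries lie outside the range of WT for *Prm3*/*Prm1*, *Prm1*/*Tnp1* and *Prm1*/*Tnp2*. The N6 point of *Prm3*/*Prm1* is raised by the 1 added to a *Prm3* value of 0.975.

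The patterns of the members over the 6 libraries were compared by the root mean square distance between log2 profiles, each centred on its own mean. *Prm1* and *Prm2* were the closest pair, with a distance of 0.082, and *Prm1* and *Prm3* the farthest, with 0.86. As all 6 values are shared and the split between *10xBulge* and the rest dominates, this is a description only. Outside the family, the lncRNA *Itpr3os* was the gene most like *Prm1* (0.35), *Prm2* (0.38) and *Tnp2* (0.30). *Ubl4b* was most like *Prm3* (0.19) and *1700015G11Rik* most like *Tnp1* (0.26). *Itpr3os* had 4547 and 3901 normalized counts in WT, 3345 and 3065 in *10xPerf*, and 2.75 and 0.982 in *10xBulge*.

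Of the nearest protein-coding genes on the chromosomes, *Tns1* was the only one past the threshold in the same direction as the members. On the sides of the cluster on chromosome 16, *Dexi*, *Clec16a*, *Socs1* and *Rmi2* were not past the threshold in *10xBulge* against WT, with log2 fold changes between -0.30 and 0.31. *Litaf* was higher, at 1.34 (SE 0.39, limma adjusted p = 0.0335), and did not pass without N1 (1.37, limma adjusted p = 0.110). *Gm11172* was listed at 0 in all 6 libraries. Beside *Tnp1*, the actin-binding gene *Tns1* was lower, at -2.09 (SE 0.44, limma adjusted p = 0.00690), and *Rpl37a*, *Igfbp2*, *Igfbp5*, *Rufy4* and *Cxcr2* were not past the threshold. None of these neighbours passed it in *10xPerf*.

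Other genes of the same process were taken from lists of known genes, and counted in *10xBulge* against WT. Each count from all 6 libraries is to be read beside the 23% of all genes tested that were lower and the 11.4% that were higher. Values without N1 rest on 1 WT library, so that medians of the lists are given for them and no counts. Each list then had as many genes past the threshold as with N1, or fewer. Of 12 testis histone variants tested, 8 were lower and 0 higher, with a median log2 fold change of -4.39 (-4.06 without N1, when fewer passed). *H2al2a*, a variant loaded as transition proteins enter chromatin, had 6834 and 3842 normalized counts in WT and 9.15 and 4.83 in *10xBulge* (a log2 fold change of -9.38, SE 0.47, limma adjusted p = 4.39e-06). *H2ap* fell by 8.99 (SE 0.46, limma adjusted p = 4.39e-06). Some H2A-like variants have near-identical copies, and the counts of such genes are uncertain. The variants that are made earlier, in spermatogonia and spermatocytes, did not pass the threshold: *H1f6* had a log2 fold change of -1.11, *H2ac1* 0.27, *H2bc1* 0.16 and *H3f4* -0.12. These 4 are all the tested variants that did not pass.

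Of 28 genes for histone removal and nuclear condensation, 8 were lower and 2 higher, shares near those of all genes, with a median of -0.43. *Tssk6*, a kinase of condensing spermatids, fell from 14066 and 13972 normalized counts in WT to 42.2 and 9.88 in *10xBulge* (a log2 fold change -9.34, SE 0.61, limma adjusted p = 8.81e-06). *Chd5*, a chromatin remodeller of the exchange, fell by 5.98 (SE 0.43, limma adjusted p = 1.29e-05). The DNA topoisomerase *Top2b* rose by 1.52 (SE 0.57, limma adjusted p = 0.0823), and the ubiquitin ligase *Rnf8* by 1.39 (SE 0.52, limma adjusted p = 0.0825). Neither passed without N1, with log2 fold changes of 0.73 for *Top2b* and 0.92 for *Rnf8*. The median of the list was then -0.70.

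Of 14 genes linked to transcription of the family, 5 were lower and 0 higher, with a median of -0.65 (-0.72 without N1, when fewer passed). *Fhl5*, the coactivator of CREM, had 4234 and 6097 normalized counts in WT and 44.7 and 58.6 in *10xBulge* (log2 fold change -6.60, SE 0.40, limma adjusted p = 7.15e-06). *Kif17*, the kinesin that moves this coactivator, fell by 5.99 (SE 0.56, limma adjusted p = 5.15e-05). Of 24 genes for storage and translation of spermatid mRNAs, 4 were lower and 2 higher, shares below those of all genes, with a median of -0.23 (-0.55 without N1). The poly(A) polymerase *Tent5c* fell by 2.46 (SE 0.43, limma adjusted p = 0.00243) and the RNA-binding *Fxr1* fell by 1.60 (SE 0.44, limma adjusted p = 0.0274). *Celf1* rose by 1.48 (SE 0.38, limma adjusted p = 0.0199) and *Eif4e1b* by 1.72 (SE 0.68, limma adjusted p = 0.0950), which did not pass without N1 (limma adjusted p = 0.220). In *10xPerf* against WT, none of the genes in these 4 lists was past the threshold.

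Markers of the cells that make these mRNAs moved in the same libraries. All 12 other markers of elongating spermatids were lower in *10xBulge* than in WT. Their median log2 fold change was -6.97 (-6.56 without N1), at a median of 0.840% of WT (1.21% without N1). *Cabs1* fell by 9.41 (SE 0.45, limma adjusted p = 4.39e-06) and *Oaz3*, an antizyme of spermatids, fell by 7.38 (SE 0.45, limma adjusted p = 7.07e-06). Of 15 round spermatid markers, 14 were lower, with a median of -4.96 and 3.50% of WT (-4.80 and 3.71% without N1, when fewer passed). *Cst13* fell by 8.17 (SE 0.51, limma adjusted p = 7.63e-06) and *Pdilt*, a chaperone of the endoplasmic reticulum, fell by 5.54 (SE 0.42, limma adjusted p = 1.56e-05). No marker of either list was at 0 in both *10xBulge* libraries. The family's own median was 0.0887% of WT, below the medians of both lists, and this difference was not tested.

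Of 18 spermatocyte markers, 2 were lower and 1 higher in *10xBulge*, with a median of -0.034 (-0.48 without N1). *Spag6* (log2 fold change -3.95, limma adjusted p = 0.000837) and *Pgk2* (-2.22, limma adjusted p = 0.00564) were lower, and *Dmc1*, the meiotic recombinase (1.60, limma adjusted p = 0.0446, and 0.240 without N1), was higher. Of 12 spermatogonia markers, 2 were higher and 1 lower, with a median of 0.73 (0.70 without N1, when fewer passed). Somatic markers were higher: 6 of 10 for Sertoli cells (median 1.18), 6 of 8 for Leydig cells (1.77) and 5 of 6 for macrophages (1.68), with 0 lower in each list, where 11.4% of all genes were higher. Without N1 the medians were 1.16, 1.52 and 1.67, and fewer genes passed in each of these lists and among all genes tested. The median log2 level of the Leydig markers was 11.16 to 12.24 in WT and 13.30 to 14.41 in *10xBulge*, that of the Sertoli markers 10.20 to 10.30 and 10.98 to 11.45, and that of the macrophage markers 8.50 to 8.52 and 9.98 to 10.63. The part of these shifts in the fall of the protamine and transition protein mRNAs was not tested. In *10xPerf* against WT, 1 gene of these 7 marker lists was past the threshold, the spermatocyte marker *Ccnb1ip1*, which was lower (log2 fold change -3.36, SE 0.58, limma adjusted p = 0.0447), and did not pass without N1.

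**Figure D5:**
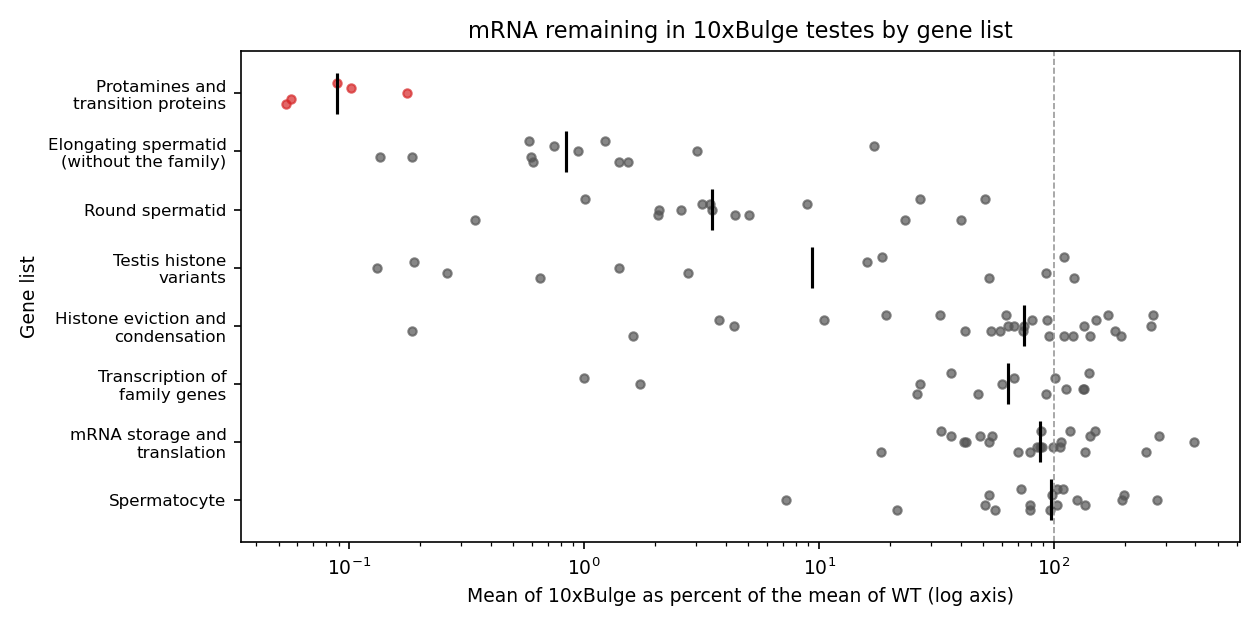
Mean of *10xBulge* as a percent of the WT mean (log axis) for each tested gene of 8 lists, with black bars at the list medians and a dashed line at 100%. The 5 family genes (red) lie between 0.0540% and 0.176%, with the spermatocyte list centred on 97.1%.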

How the data were processed

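The authors assigned the RNA-seq reads to GRCm39 transcripts with salmon, with its GC correction. The values that the authors deposited are normalized counts that they obtained with DESeq2, a signal per gene that is scaled between libraries. Of 34847 genes above 0, 17.7% are whole multiples of a step in every library (tolerance 0.001), so that whole reads could not be had from them. Approximate reads are values divided by the most frequent step. The authors deposited log2 fold changes and p-values of their own comparisons too, which were not used.

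A gene was tested if 2 or more libraries reached 10 normalized counts. limma 3.58.1 (R 4.3.3) was run on log2(value + 1), with genotype as the factor, a trend of variance on level, and Benjamini-Hochberg adjustment over all genes. The procedure was checked on simulated data. Values of the lists without N1 were chosen after the data were seen. Ratios and figures used Python 3.11.15, scipy 1.17.1 and matplotlib 3.10.9. Transcript lengths and GC contents are those of GENCODE on GRCm38, without correction to effective length, and promoters those of RefSeq on GRCm38.p6, since no GRCm39 reference was used here. Named list genes are up to 2 per direction with the smallest p among those past the threshold. The 4 histone variants that did not pass were named after their values were seen. For likeness, the 3 nearest genes per member were found and the nearest is named. Members and lists were chosen with earlier results of these data known. The 20 MILI and MIWI immunoprecipitation samples were not analysed here.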

Additional observations from a re-analysis of the deposited data

How the results depend on the processing

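In both *10xBulge* comparisons all 5 members kept their direction and stayed past the threshold under every alternative that tested them. *Prm3* was not tested with a minimum of 10 in every library, where the other 4 passed. The largest limma adjusted p over the alternatives was 0.00355 against WT and 0.00456 against *10xPerf*. In *10xPerf* against WT none passed in any, and the signs of small values turned. Scaling by library totals gave 0.094 for *Prm1* and 0.037 for *Prm3*, and removing the GC trend of each library gave 0.17 and 0.30. Leaving out each library gave ranges of -0.29 to 0.21 for *Prm1*, -0.26 to 0.44 for *Prm2*, -0.34 to 0.14 for *Prm3* and -0.33 to 0.53 for *Tnp2*. *Tnp1* kept its sign, with a range of 0.37 (without N1) to 0.94 (without N2). Differences of log2 ratios ranged, when each library was left out, from -0.020 to 0.19 (*Prm2*/*Prm1*) and -0.93 to 0.50 (*Tnp2*/*Tnp1*) in *10xBulge*, and from -0.23 to 0.11 (*Prm3*/*Prm1*), -1.27 to 0.16 (*Tnp2*/*Tnp1*) and -0.43 to 0.15 (*Prm1*/*Tnp2*) in *10xPerf*. The percent of WT that remained ranged from 0.0307 to 0.0773 for *Prm1*, 0.0315 to 0.0811 for *Prm2* and 0.0340 to 0.318 for *Prm3*, with the lowest value without N5 and the highest without N6, from 0.0750 to 0.128 for *Tnp1* and from 0.0646 to 0.125 for *Tnp2*. The causes were not tested.

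Over all genes, 5466 were lower in *10xBulge* than in WT, and 2926 with a minimum of 10 in every library. Genes higher were 2712, from 636 (without N1) to 8712 (GC trend removed). Against *10xPerf*, 5729 were lower, from 3064 (minimum of 10 in every library; 3730 without N3) to 5884, and 3077 higher, from 418 (without N3) to 8801 (GC trend removed). In *10xPerf* against WT, 111 were higher, from 11 to 214, and 117 lower, from 10 to 190. Library totals moved the share of calls that were higher from 33.2% to 55% against WT and from 34.9% to 49.8% against *10xPerf*, with the median of all genes at 0.36 and 0.18. The GC trend removed gave 64.8% and 64.5%, with medians of 0.58 in both. No paired analysis was run, as the sources used here gave no pairing of libraries between genotypes. Count tests were not run, as whole reads were not recovered. With 2 libraries per genotype and about 1 read of *Prm3* in N6, changes within the intervals given could not be seen. These intervals are not adjusted for the number of genes, so that larger changes could also miss the threshold.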
